A study of Gallus gallus with 6 samples.

Results

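The maxillary prominences (MXP) of talpid2 embryos were set against those of control embryos by RNA-seq. The comparison covered the 9128 of 10337 listed genes whose values lay within the authors' limits of expression in all 6 libraries of the study, and for each of them the log2 ratio of the talpid2 MXP library to the control MXP library was taken. The other 1209 genes lay within those limits in 1 to 5 libraries, and they are called the low-expression group below. The name follows the limits and not the reads, since the measure to which the limits were applied is not given in the sources used here, and 340 of the 1060 genes of this group with recovered reads had over 100 reads in their highest library. The talpid2 chick is an autosomal recessive mutant with polydactyly and facial clefts, for which the study gives a truncating deletion in C2CD3 as the likely but not the only possible causal change. The study kept the mutation on an inbred congenic line and on an outbred commercial line, and which of them gave these libraries is not given in the sources used here. The labels call the genotypes talpid2 and control and do not say whether a control embryo could carry 1 mutant allele. Tissue of 8 embryos per genotype at Hamburger-Hamilton stage 25 (HH25) was dissected by hand and pooled, and RNA of the frontonasal (FNP), maxillary and mandibular (MNP) prominences went into 1 library each. No ratio therefore has a replicate check within these libraries, and the frontonasal and mandibular libraries serve here as context. Outside the libraries, the study measured SHH and PTC, its name for the receptor gene PATCHED, by quantitative RT-PCR and in situ hybridization. By quantitative RT-PCR it reported more SHH and no significant change of PTC in the maxillary prominence.

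The maxillary prominence is a swelling of neural crest mesenchyme under an epithelium, and it gives rise to the sides of the upper beak and to the palatal shelves. Its outgrowth depends on signals between epithelium and mesenchyme, among them Sonic hedgehog, bone morphogenetic proteins, fibroblast growth factors, WNT proteins and retinoic acid. Hedgehog signalling in vertebrates passes through the primary cilium, a thin projection that grows from the mother centriole, where the GLI transcription factors are turned into activators or repressors. C2CD3 is a protein of the distal end of that centriole, and without it cilia are not built properly.

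The deposited values are log2 values of scaled expression relative to each gene's own median over the 6 libraries, so that they give the difference between libraries and not the level of a gene against other genes. The scaled values rose in even steps, taken here as the worth of 1 base of a 50-base read. That read length was inferred from the steps and is not given in the sources used here. All recovered numbers, intervals and p-values below depend on it. By these steps the reads of 5218 genes (50.5%) were recovered in both maxillary libraries, 4197 of them among the 9128 genes. A recovered number need not be whole, since it is taken to count the part of each read that lay within the listed gene. Of recovered values under 5 reads, 15.5% were whole. The recovered reads summed to 1.37248e+06 in the talpid2 and 1.36928e+06 in the control MXP library, so that both were about equally deep. Genes with more than 1000 reads in a library were mostly outside the recovery, and for these a ratio is given without an interval. The 95% intervals below are Clopper-Pearson intervals, computed on how the reads of a gene were split between both libraries. The read test is the study's own, the 2-sided exact Audic-Claverie test without correction, with p at most 0.05 as its limit. It compares a pair of libraries and not the genotypes. Counting error is all that these intervals and p-values cover, since 1 pooled library stands for each genotype. Reads that were amplified do not stand for separate molecules, so the counting error itself may be larger than given.

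Most genes differed little between the talpid2 and the control MXP. The median log2 ratio of the 9128 genes was -0.0023, the SD was 0.209, and 83.8% of the genes lay within 0.25 of 0. A ratio of at least 0.5, or 1.41-fold, in either direction was found for 299 genes, 3.28% of those measured, of which 150 (1.64%) were higher and 149 (1.63%) lower in talpid2. A ratio of at least 1, or 2-fold, was found for 29 genes (0.318%), 13 higher (0.142%) and 16 lower (0.175%). These limits stand in for a call wherever genes are counted below. With GAPDH as the reference gene, every ratio would be lower by 0.11, since the ratio of GAPDH itself was 0.11, and the 0.5 limit would then be passed by 77 genes higher and 259 lower in talpid2. The read test was passed by 736 of the 4197 genes with reads (17.5%), 397 higher (9.46%) and 339 lower (8.08%), and 235 (5.6%) passed after Benjamini-Hochberg adjustment over all 5218 genes tested, 126 higher (3%) and 109 lower (2.6%). Over all 10337 listed genes, low-expression group included, 735 (7.11%) were past 0.5, 360 higher (3.48%) and 375 lower (3.63%), and 178 (1.72%) past 1, 93 higher (0.9%) and 85 lower (0.822%). The read test over all 5218 genes was passed by 897 (17.2%), 463 higher (8.87%) and 434 lower (8.32%), and by 291 (5.58%) after adjustment, 144 higher (2.76%) and 147 lower (2.82%).

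The spread of the ratios followed the number of reads, taken here as the geometric mean of both MXP libraries. Among genes with 10 to 30 reads the SD was 0.52, where counting error alone gives 0.47, and 39.7% of these 126 genes lay past 0.5. Among the 1919 genes with 300 to 1000 reads the SD was 0.16, where counting error gives 0.09, and 0.938% lay past 0.5. A gene past 0.5 therefore stood far from its peers where this mean was 300 to 1000 reads, and not where it was under 30.

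**Figure D1:**
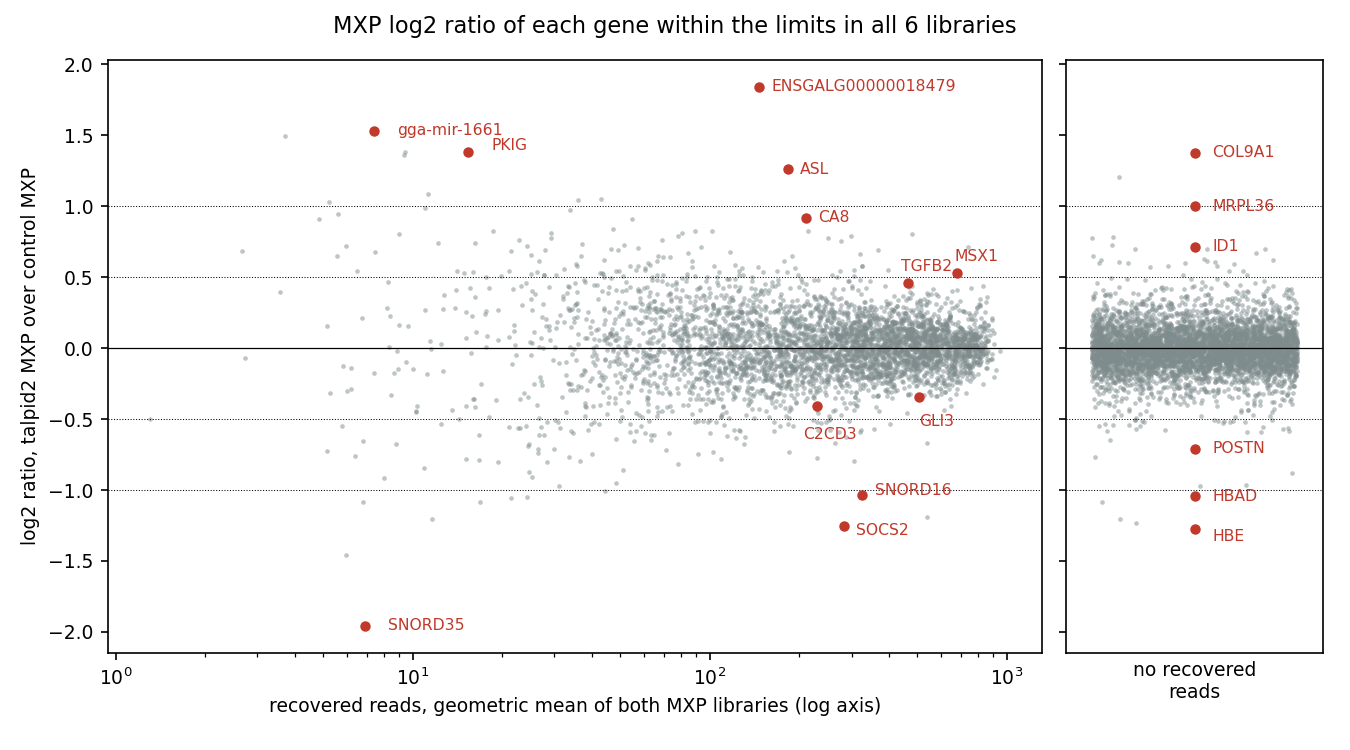
The vertical axis is the log2 ratio of the talpid2 over the control MXP library and the horizontal axis the geometric mean of the recovered reads of both libraries on a log axis, with 1 point per gene, and genes without recovered reads stand in the panel on the right. The cloud narrows as reads increase, and SOCS2 at -1.25 and ENSGALG00000018479 at 1.84 lie outside it with over 70 reads in each library, whereas SNORD35 at -1.96 rests on 3.50 reads in talpid2 and 13.6 in control.

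C2CD3 itself (ENSGALG00000017314, chromosome 1 from 200570510 to 200609588 in the coordinates of the deposited file, which does not name its assembly) had 198.5 reads in the talpid2 and 263.8 in the control MXP library. The log2 ratio was -0.41 (95% interval -0.68 to -0.14, exact p = 0.0024 between these libraries). Its transcript was thus present in the mutant tissue, at 0.755 times the control level by these reads. The study also found C2CD3 expressed in both genotypes by RT-PCR and in situ hybridization. It reported several sequence differences in the mutant C2CD3, and their effect on the alignment of reads was not tested. The ratio was -0.18 in the FNP and -0.16 in the MNP, and the difference of the MXP from either did not pass the exact conditional test of equal ratios (adjusted p = 0.73 against the FNP and 0.66 against the MNP). NUP98, a nuclear pore protein, and NEU3, a sialidase of the plasma membrane, were the other candidates in the interval the study mapped, and their ratios were -0.15 and 0.38. The study resequenced both and reported no likely causal variant and no altered expression level for them, without showing those data.

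None of 46 genes for ciliary transport and the transition zone passed 0.5 in either direction, where 3.28% of all genes did, and their median was 0.02, which becomes -0.10 with GAPDH as the reference gene. TMEM231, a transition zone protein, had the highest ratio, 0.32. IFT22, a subunit of the anterograde transport complex, had 482 reads in talpid2 and 421 in control, a ratio of 0.20 (exact p = 0.0404). BBS2, a subunit of the BBSome that carries membrane proteins in the cilium, had 591.7 and 516.6 reads in talpid2 and control, also a ratio of 0.20 (exact p = 0.0225). These were the only members of that list that passed the read test, of 24 with reads, where 17.5% of all genes with reads passed. Among 30 genes of the centriole and its distal appendages none passed 0.5, 21 lay below 0 and the median was -0.07. CEP97, which caps growing centrioles, had 119.2 reads in talpid2 and 161.4 in control (-0.43, interval -0.79 to -0.08). ODF2, a protein of the mother centriole's appendages, had 519.3 and 595.9 reads in talpid2 and control (-0.19, exact p = 0.0246). POC1A, which keeps centrioles stable, went the other way, with 788.1 reads in talpid2 and 662.9 in control (0.25, exact p = 0.000887).

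Among the Hedgehog genes, the ligand SHH and its inhibitor HHIP were higher in talpid2, and most other components named here were not. SHH (ENSGALG00000006379, chromosome 2 from 7684550 to 8084907) had 119.2 reads in the talpid2 and 39.8 in the control MXP library, a ratio of 1.59 (interval 1.05 to 2.13, exact p = 2.29e-10). It belongs to the low-expression group, with 5 libraries within the limits, and the listed interval also holds INSIG1, RBM33 and ENSGALG00000006366 on the opposite strand, whose ratios were 0.13, -0.17 and -0.43. HHIP, a membrane protein that binds Hedgehog ligands and is itself a target of the pathway, had 70.3 reads in talpid2 and 41.0 in control (0.78, interval 0.20 to 1.37, exact p = 0.0072), and it too is of the low-expression group. Both genes had under 130 reads in each library, so their intervals are wide.

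Further genes for the release and reception of the ligand are given next. DISP1, which releases Hedgehog from the cells that make it, had log2 values of -0.03 in the talpid2 and 0.37 in the control MXP library, a ratio of -0.40. HHAT, the acyltransferase that attaches palmitate to the ligand, had a ratio of 0.08, and SCUBE1, a secreted carrier, one of -0.07. Over the 4 listed genes for ligands and release within the limits in all libraries, the median was -0.24, and with SHH included it was -0.07. Over 7 receptors and co-receptors within the limits in all libraries the median was 0.09, which becomes -0.02 with GAPDH as the reference gene. The main receptor PTCH1 had values of -0.75 in talpid2 and -0.87 in control, a ratio of 0.12 that becomes 0.00 with GAPDH as the reference gene. Of the co-receptors, GAS1 had a ratio of -0.31, CDON of -0.07 and BOC of 0.09, and SMO, which carries the signal into the cell, had -0.09.

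Among 10 transducers of the signal none passed 0.5, and the median was -0.06. GLI3 (ENSGALG00000012329, chromosome 2 from 50832042 to 51026884), the main repressor of the pathway in its cleaved form, was the one that passed the read test. It had 447.2 reads in the talpid2 and 570.2 in the control MXP library, a ratio of -0.35 (interval -0.53 to -0.16, exact p = 0.000143). GLI2, the main activator, was taken to be the listed gene ENSGALG00000011630 on chromosome 7, which the deposited file describes as a fragment of GLI3 and pairs with the identifier of a neighbour of GLI2, and its ratio was 0.02. SUFU, which holds GLI proteins in the cytoplasm, and KIF7, the kinesin that organises them at the ciliary tip, had ratios of 0.13 and -0.08. Of 8 targets within the limits in all libraries none passed 0.5, and the median was -0.04, which turns to 0.02 when the low-expression members HHIP and FOXL1 are included. FOXF1, a forkhead factor induced by Hedgehog in facial mesenchyme, had 146.8 reads in talpid2 and 130.6 in control (0.17, exact p = 0.353). OSR2, a factor of the palatal shelves, had 472.9 and 477.1 reads in talpid2 and control (-0.01). MYCN, a target that drives the cell cycle, had a ratio of -0.40, and CCND1, a cyclin of the start of the cycle, had 652 reads in talpid2 and 735.4 in control (-0.17, exact p = 0.0306). The targets thus did not share a direction.

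**Figure D2:**
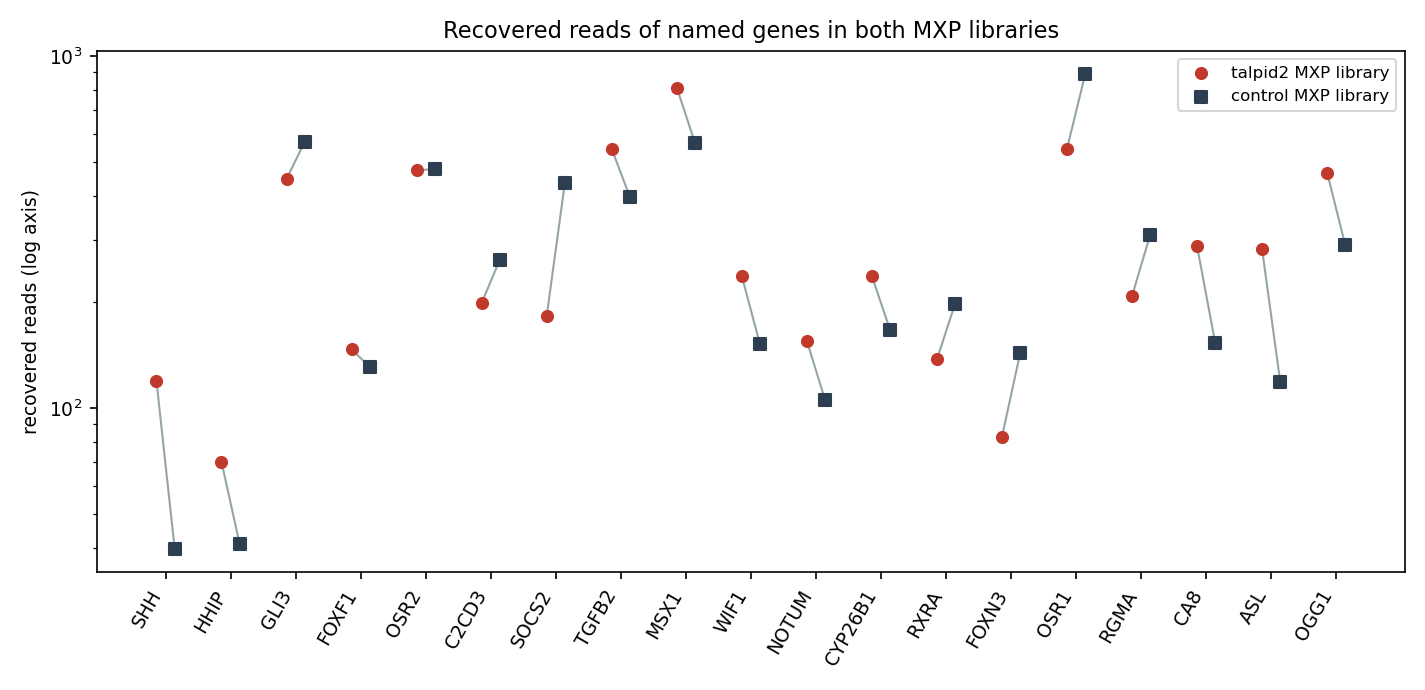
Recovered reads of 19 named genes are plotted on a log axis, with a circle for the talpid2 and a square for the control MXP library, joined by a line for each gene. SHH stands at 119.2 reads in talpid2 and 39.8 in control, SOCS2 at 182.2 and 436.0, and OSR2 at 472.9 and 477.1.

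SOCS2 had the lowest ratio of the signalling genes within the limits in all libraries. It encodes a suppressor of cytokine signalling, an intracellular brake on growth hormone and other cytokine receptors that is induced through STAT5. SOCS2 (ENSGALG00000011295, chromosome 1 from 46783618 to 46785293) had 182.2 reads in the talpid2 and 436.0 in the control MXP library, a ratio of -1.25 (interval -1.51 to -1.0, exact p = 5.88e-25). The ratio was -0.25 in the FNP and -0.53 in the MNP, and the MXP was lower than the FNP by 1.0 (exact conditional test, adjusted p = 9.63e-08) and lower than the MNP by 0.73 (exact conditional test, adjusted p = 0.00052). Of the 12 genes listed for cytokine feedback and insulin-like growth, SOCS2 and STAT5A were past -0.5 and none was past 0.5, with a median of -0.07. The share of all genes past -0.5 was 1.63%, and past 0.5 it was 1.64%. STAT5A had 19.2 reads in talpid2 and 31.1 in control, and its ratio of -0.69 did not pass the read test (exact p = 0.0944). SOCS6, a further suppressor, had 171.1 and 223.2 reads in talpid2 and control (-0.38, exact p = 0.0097). GHR, the growth hormone receptor, had a ratio of 0.09, which becomes -0.03 with GAPDH as the reference gene.

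Genes of cartilage stood above 0 as a group, and those of the general matrix mostly below it. All 8 cartilage genes within the limits in all libraries had positive ratios, with a median of 0.21 against -0.0023 for all genes. This median becomes 0.10 with GAPDH as the reference gene. It was -0.09 in the FNP and 0.18 in the MNP, so a rise of this size was not particular to the MXP. In the MXP 2 of the 8 were past 0.5, where 1.64% of all genes were. The 4 low-expression members had a median of 0.29, with 2 past 0.5. COL9A1, a chain of the collagen that coats cartilage fibrils (ENSGALG00000015970, chromosome 3 from 85586690 to 85733990), had log2 values of -0.38 in the talpid2 and -1.76 in the control MXP library, a ratio of 1.38. Of the genes among the 9128 without recovered reads, none had a higher ratio. In the FNP and MNP the ratio of COL9A1 was 0.04 and 0.24. MATN4, a matrilin of the cartilage matrix, had -3.07 in talpid2 and -3.77 in control, a ratio of 0.70. In the control FNP library the log2 values were 2.08 for COL9A1 and 1.25 for MATN4. Both genes thus stood far lower in the MXP, where their reads are not known and may be few. HAPLN1, the link protein that ties hyaluronan to aggrecan, had 228.7 reads in talpid2 and 187.2 in control (0.29, exact p = 0.0406). SOX9, which sets the chondrocyte fate, and its partner SOX5 had ratios of 0.17 and 0.19. The other ratios were 0.22 for CNMD, 0.15 for COL9A3 and 0.05 for COL11A1, and the last becomes negative with GAPDH as the reference gene. In the low-expression group, ACAN, the core protein of aggrecan, had log2 values of -3.87 in talpid2 and -4.53 in control, a ratio of 0.66. Its value in the control FNP library was 2.17, so the same limit holds. EPYC, a small proteoglycan, had 14 reads in talpid2 and 8 in control (0.81). MATN1, a cartilage matrilin, had 3.74 and 4 reads in talpid2 and control (-0.09). CYTL1, a secreted factor of chondrocytes, and MATN2, a matrilin of connective tissue, were picked after their values were seen and had ratios of 0.63 and 0.57.

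Of 27 genes for the matrix of mesenchyme and basement membrane, 18 had negative ratios, with a median of -0.19. Past -0.5 were 2 of them and past 0.5 none, where 1.63% and 1.64% of all genes were. The median of this list was -0.38 in the FNP and -0.16 in the MNP. POSTN, periostin of fibrous connective tissue (ENSGALG00000017046, chromosome 1 from 176288241 to 176321488), had log2 values of -0.10 in the talpid2 and 0.61 in the control MXP library, a ratio of -0.71. OGN, a small leucine-rich proteoglycan, had -0.49 in talpid2 and 0.16 in control, a ratio of -0.65, and its listed interval lies within that of CENPP on the opposite strand. SPON2, a secreted spondin, was at -0.47. The fibril collagens and their partners followed at smaller size, with -0.44 for COL3A1, -0.37 for COL12A1, -0.30 for COL14A1, -0.31 for the proteoglycan DCN, -0.31 for the laminin chain LAMC1 and -0.28 for COL6A2. FN1, fibronectin, had -0.08 and VCAN, versican, 0.00. Of the 9 ratios above 0 the highest were those of TGFBI, a matrix protein induced by TGF-beta, at 0.27, ELN, elastin, at 0.20, and COL4A1, a collagen of basement membranes, at 0.17. None of these genes has recovered reads, so their ratios have no interval.

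**Figure D3:**
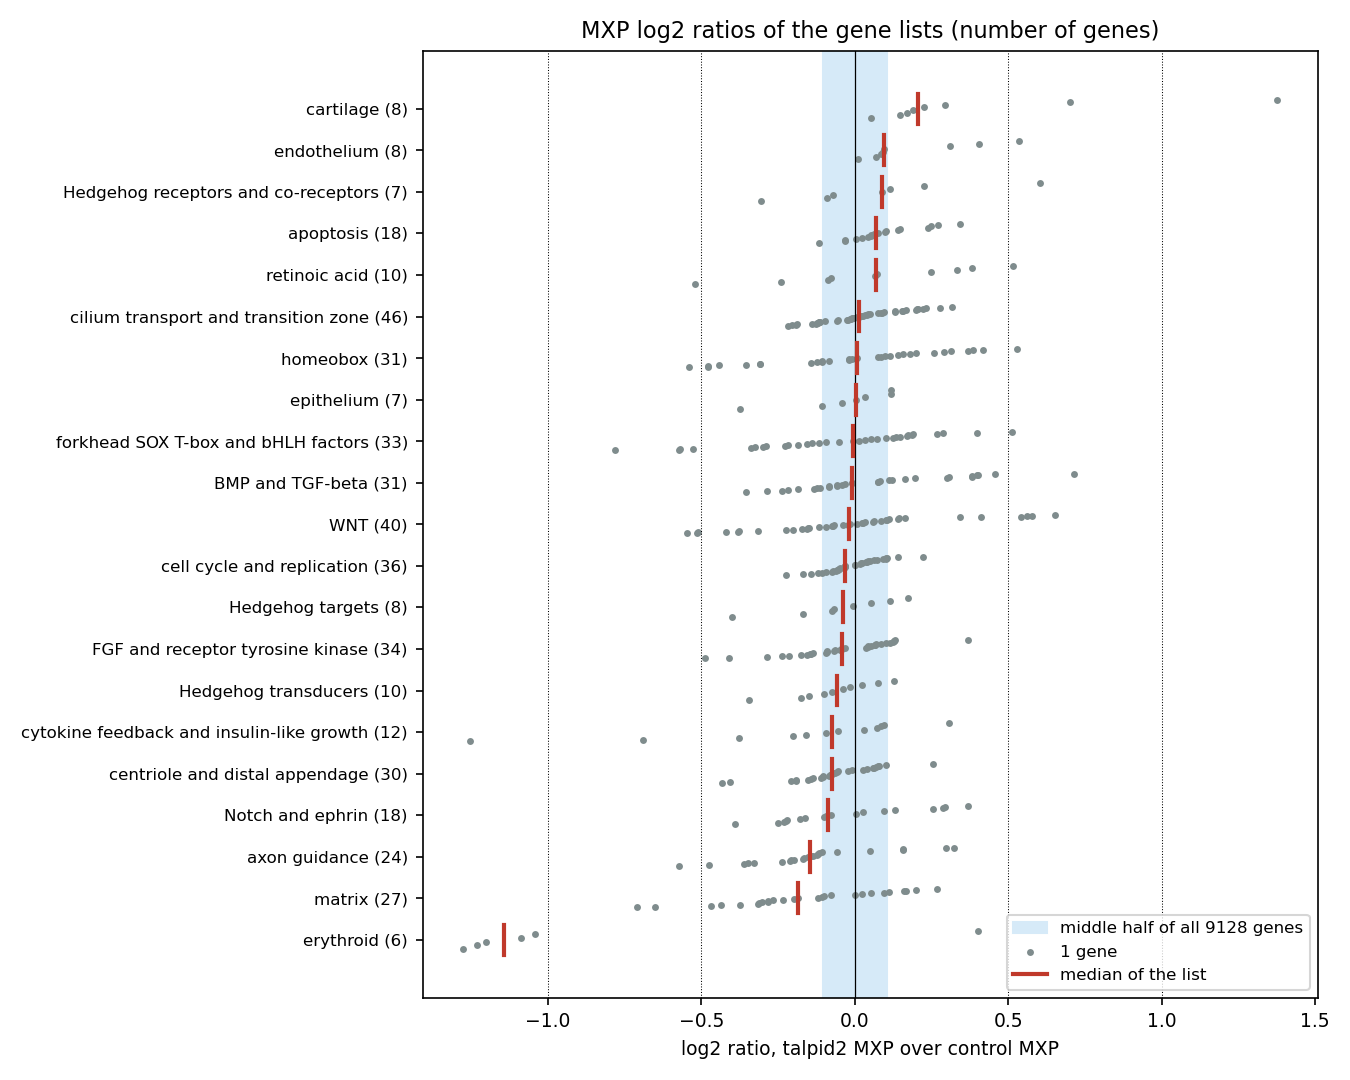
Each row is a gene list with the number of its genes within the limits in all 6 libraries, each point is the log2 ratio of 1 gene in the talpid2 over the control MXP, the upright bar is the median of the list and the shaded band runs from -0.10 to 0.11, the quartiles of all 9128 genes. The erythroid list lies at -1.14 with TAL1 apart at 0.40, the matrix and axon guidance lists lie below the band at -0.19 and -0.15, and the cartilage list lies above it at 0.21.

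The BMP and TGF-beta genes as a list had a median of -0.01 over 31 genes, and ID1 was the only one past 0.5 in either direction. ID1, an inhibitor of bHLH factors that BMP signals induce directly, had log2 values of -0.21 in the talpid2 and -0.93 in the control MXP library, a ratio of 0.71, and its listed interval lies within that of HM13 on the same strand, whose ratio was 0.05. A further list, genes known to be induced by BMP signals, was drawn up only after such values had been seen, and its counts describe these libraries without supporting anything. Of its 11 genes 10 had positive ratios, the median was 0.38, and ID1 and MSX1 were past 0.5. The median was 0.26 in the FNP and 0.30 in the MNP, so positive values were not particular to the MXP. MSX1, a homeobox factor of the distal facial mesenchyme (ENSGALG00000015013, chromosome 4 from 81774811 to 81777300), had 813.0 reads in the talpid2 and 566.3 in the control MXP library, a ratio of 0.53 (interval 0.37 to 0.68, exact p = 1.99e-11). In the FNP and MNP the ratio of MSX1 was 0.18 and 0.72. The related gene MSX2 was at 0.42 in the MXP. The ratios of the inhibitors among them were 0.40 for SMAD6, 0.31 for BAMBI and 0.40 for BMPER, and those of ID2 and ID4 were 0.38 each. HEY1 had 337.8 reads in talpid2 and 276.4 in control (0.29, exact p = 0.0122). SMAD9, a signal carrier that BMP also induces, was the member below 0, at -0.13.

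The ligands of this family did not move together. TGFB2 (ENSGALG00000009612, chromosome 3 from 20477096 to 20539801), which is needed for palate and skeleton formation in the mouse, had 543.8 reads in the talpid2 and 397.5 in the control MXP library. Its ratio was 0.46 (interval 0.27 to 0.65, exact p = 1.69e-06), against -0.28 in the FNP and -0.21 in the MNP, and both differences passed the exact conditional test (0.74 with adjusted p = 0.00066 against the FNP, 0.66 with adjusted p = 0.0012 against the MNP). TGFB3, whose product acts in fusion of the palatal shelves, had a ratio of 0.30, and TGFBR3, a co-receptor, one of -0.35. In the low-expression group BMP5, a ligand of skeletal tissue, had a ratio of -1.07, with log2 values of -1.41 in talpid2 and -0.34 in control. BMP6, of the same branch, had 23.0 reads in talpid2 and 42.9 in control (-0.89, exact p = 0.0145), and FST, follistatin, a secreted antagonist of activin and BMP, had 82.1 and 131.1 reads in talpid2 and control (-0.67, exact p = 0.000845).

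In the WNT list 4 of 40 genes were past 0.5 and 3 past -0.5, with a median of -0.02. Of all 9128 genes, 1.64% were past 0.5 and 1.63% past -0.5. The genes past 0.5 all encode secreted modulators. WIF1, which binds WNT proteins outside the cell, had 237.2 reads in the talpid2 and 151.6 in the control MXP library (0.65, interval 0.35 to 0.95, exact p = 1.64e-05). NOTUM, which inactivates WNT proteins by removing their lipid, had 155.1 and 105.5 reads in talpid2 and control (0.56, interval 0.20 to 0.94, exact p = 0.0021). RSPO2, which strengthens WNT signals by sparing their receptors, had log2 values of 0.45 in talpid2 and -0.12 in control, a ratio of 0.58. DKK4, a blocker of LRP receptors, had 59.4 reads in talpid2 and 41.0 in control, and its ratio of 0.54 did not pass the read test (exact p = 0.0854). With GAPDH as the reference gene, WIF1 would stay past 0.5, at 0.54. NOTUM, RSPO2 and DKK4 would then lie under 0.5, at 0.45, 0.47 and 0.43. The genes past -0.5 were the receptors ROR2 at -0.55 and LRP6 at -0.52 and the LRP antagonist DKK2 at -0.51, and LRP6 lies within the listed interval of BORCS5 on the opposite strand. AXIN2, a general feedback target of the canonical pathway, had log2 values of -0.32 in talpid2 and 0.06 in control, a ratio of -0.38, and NKD1, a further feedback inhibitor, had -0.32. TCF7L2, a transcription factor at the end of the pathway, had 247.2 reads in talpid2 and 331.7 in control (-0.42, exact p = 0.000478). Of the ligands, WNT5B had 515.1 and 407.9 reads in talpid2 and control (0.34, exact p = 0.000391), and WNT4 had a ratio of -0.38. The receptor FZD10 had 182.0 reads in talpid2 and 137.3 in control (0.41, exact p = 0.0125).

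None of the 34 genes for fibroblast growth factors and other receptor tyrosine kinase signals was past 0.5 in either direction, and the median was -0.04. FGFR3, a receptor of growth cartilage, had 92.2 reads in the talpid2 and 129.9 in the control MXP library (-0.49, interval -0.90 to -0.10, exact p = 0.0116). FGFR2, a receptor of epithelium and mesenchyme, had a ratio of -0.29, and FGF18, a ligand of palate and cartilage, had 63.4 and 84.5 reads in talpid2 and control (-0.41, exact p = 0.0746). FGF2 lay at the other end with 0.37. Of the 11 low-expression members of this list, 5 were past -0.5 and 2 past 0.5, where 18.7% and 17.4% of the whole low-expression group were. In the low-expression group HGF, the ligand of the MET receptor, had 71.3 reads in talpid2 and 107.9 in control (-0.59, exact p = 0.0061), and IGFBP5, which binds insulin-like growth factors, had 9 and 24.8 reads in talpid2 and control (-1.46, exact p = 0.0062).

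Genes of retinoic acid metabolism showed both directions. CYP26B1, the enzyme that breaks retinoic acid down (ENSGALG00000016102, chromosome 4 from 93705150 to 93709483), had 237.0 reads in the talpid2 and 166.6 in the control MXP library, a ratio of 0.51 (interval 0.22 to 0.80, exact p = 0.000509). RXRA, a partner of the retinoic acid receptors, had 137.3 reads in talpid2 and 197.7 in control, a ratio of -0.52 (interval -0.85 to -0.20, exact p = 0.000953), and its listed interval overlaps that of COL5A1 on the same strand, whose ratio was -0.28. They were the members past 0.5 in either direction among 10, where 3.28% of all genes were. DHRS3, which turns retinaldehyde back to retinol, had a ratio of 0.38, and RDH10, which makes retinaldehyde, one of 0.33, with log2 values of 1.51 in talpid2 and 1.18 in control. The synthesising enzyme ALDH1A2 had 0.07, which becomes negative with GAPDH as the reference gene. RBP5, a retinol-binding protein, had 492.2 and 415.5 reads in talpid2 and control (0.25, exact p = 0.011). CYP1B1, a cytochrome P450 that can also make retinoic acid, had 625.3 and 741.3 (-0.24, exact p = 0.0021).

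Transcription factors of the facial mesenchyme gave a median of 0.01 over 31 homeobox genes and -0.01 over 33 forkhead, SOX, T-box and bHLH genes. Besides MSX1, the homeobox gene past a limit was ZFHX3, a large zinc-finger homeodomain factor, at -0.54. ALX4, a factor of frontal facial mesenchyme, had log2 values of -0.55 in the talpid2 and -0.07 in the control MXP library, a ratio of -0.48. IRX5, an Iroquois factor, had 152.6 reads in talpid2 and 213.1 in control (-0.48, exact p = 0.0019), and its relative IRX2 had 267.8 and 333.0 (-0.31, exact p = 0.0091). PAX9, a factor required for the palate in the mouse, had 439.5 and 354.7 reads in talpid2 and control (0.31, exact p = 0.0024). LHX8, a LIM factor concentrated in the maxilla, was at 2.39 in talpid2 and 2.02 in control, a ratio of 0.37. Genes past -0.5 among the forkhead and other families were FOXN3, FOXL2, TFAP2A and FOXP1, 4 of 33, where 1.63% of all genes were. FOXN3, a forkhead repressor, had 82.8 reads in talpid2 and 142.8 in control (-0.78, interval -1.19 to -0.38, exact p = 6.94e-05). FOXL2 had 3.28 in talpid2 and 3.85 in control on the log2 scale, far above its own median in both, a ratio of -0.57. TFAP2A, a neural crest factor whose loss clefts the face in the mouse, had -0.29 and 0.29 in talpid2 and control, also -0.57, and its relative TFAP2B had -0.32. The nuclear receptor NR2F2 had -0.58, with an unnamed listed gene on the opposite strand of the same interval at -0.97. BHLHE40, a bHLH repressor, was past 0.5 at 0.51, with 60.9 reads in talpid2 and 42.9 in control (exact p = 0.0915).

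OSR1, a zinc-finger factor related to OSR2 (ENSGALG00000016473, chromosome 3 from 103927821 to 103929131), stood apart in the MXP. It had 544.4 reads in the talpid2 and 885.5 in the control MXP library, a ratio of -0.70 (interval -0.86 to -0.54, exact p = 1.92e-19). In the MNP it had 611.3 and 669.8 reads in talpid2 and control, a ratio of 0.12, and in the FNP 43.4 and 35.3, a ratio of 0.57. The MXP ratio was lower by 0.82 than that of the MNP (exact conditional test, adjusted p = 2.51e-10) and by 1.27 than that of the FNP (exact conditional test, adjusted p = 0.0145). OSR1 belongs to the low-expression group, with 4 of 6 libraries within the limits. Of that group, EBF2, a factor of early mesenchymal lineages, had 46.6 reads in talpid2 and 92.9 in control (-0.99, exact p = 0.000102), and EMX2, a homeobox factor, had 7.96 and 32.0 (-2.00, exact p = 0.000117).

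Axon guidance genes, which facial mesenchyme uses to steer nerves, lay below 0 in 19 of 24, with a median of -0.15. Their median was -0.24 in the FNP and -0.17 in the MNP, and the MXP median becomes -0.26 with GAPDH as the reference gene. RGMA, a membrane-bound repulsive cue and BMP co-receptor, was the only one past 0.5 in either direction. It had 207.7 reads in the talpid2 and 310.3 in the control MXP library (-0.57, interval -0.83 to -0.31, exact p = 8.54e-06). The repulsive cues SLIT3 and SEMA3A had ratios of -0.48 and -0.35, and SLIT1 one of 0.32. None of 18 Notch and ephrin genes was past 0.5. EFNB2, an ephrin, had a ratio of -0.39, and HES1, a target of Notch, one of 0.37. HES5, a Notch target of the low-expression group, had 153.0 reads in talpid2 and 100.2 in control (0.62, exact p = 0.000941).

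None of 36 genes for the cell cycle and DNA replication was past 0.5, and their median was -0.03. Of 18 apoptosis genes none was past 0.5 and 15 were above 0, with a median of 0.07 that becomes -0.04 with GAPDH as the reference gene. MCL1, which blocks apoptosis, had the highest ratio of these, 0.34. LDHA, which makes lactate, was the only one of 24 genes for glycolysis and hypoxia past 0.5, at 0.51. MYC, a driver of growth, had 44.5 reads in talpid2 and 64.8 in control (-0.54, exact p = 0.0468).

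The dissected tissue was checked by markers. Of 6 facial mesenchyme markers within the limits in all libraries 4 lay below 0, with a median of -0.03, and MSX1 at 0.53 and TFAP2A at -0.57 were past the limit. PRRX1 and PDGFRA, general factors of mesenchyme, had ratios of -0.02 and -0.04, and ALX1 of the frontonasal mesenchyme 0.16. HAND2, which marks the mandible and not the maxilla, was within the limits in 2 libraries only, with log2 values of -0.53 in the talpid2 and 0.14 in the control MXP library, against 6.91 in the talpid2 and 6.70 in the control MNP library. The 3 mandibular genes within the limits in all libraries went the other way, all above 0. Their median was 0.10, which becomes -0.01 with GAPDH as the reference gene. The erythroid list was the one with the largest shift. Of its 16 genes 8 are listed, and 5 of the 6 within the limits in all libraries were past -1, where 0.175% of all genes were. All 5 are haemoglobins, and the median over the 6 was -1.14. HBE had a ratio of -1.28, HBZ -1.23, HBE1 -1.20, HBA1 -1.09 and HBAD -1.04, and HBE, for example, had log2 values of -0.35 in talpid2 and 0.93 in control. TAL1, a factor of blood and vessel progenitors, had 29.0 and 22.1 reads in talpid2 and control (0.40, exact p = 0.394). EPB42 of the red cell membrane was lower, with 47.6 reads in talpid2 and 92.1 in control (-0.95, exact p = 0.000204) in the low-expression group. KLF1, an erythroid factor of the same group, had 42.1 and 56.5 reads in talpid2 and control (-0.42, exact p = 0.164). Outside the list, TSPO2, among the lowest genes by the rule below, was at -0.96, and SLC25A37, which brings iron into mitochondria and was picked after its value was seen, had 58.8 and 104.0 reads in talpid2 and control (-0.82, exact p = 0.000444). In such bulk tissue, fewer cells of a type and less RNA per cell cannot be told apart. The values are relative to each gene's median, so no summed level of the markers is given, and the part of the lower erythroid genes in any other ratio was not tested.

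All 8 endothelial genes had positive ratios, with a median of 0.09 that becomes -0.02 with GAPDH as the reference gene. EGFL7, secreted by endothelium, had 181.9 reads in talpid2 and 125.9 in control (0.54, exact p = 0.0015), and ESAM, an endothelial adhesion protein, had 171.3 and 130.0 (0.40, exact p = 0.0193). PECAM1 had 0.31 and KDR, the VEGF receptor, 0.07. The epithelial list was near 0, with a median of 0.00 over 7 genes and none past 0.5. Among them EPCAM was at 0.00 and CDH1 at -0.04, and TP63, the master factor of stratified epithelium, had 120.6 reads in talpid2 and 157.0 in control (-0.38, exact p = 0.0333). KRT15, a keratin of basal epithelium in the low-expression group, had 178.1 and 108.4 reads in talpid2 and control (0.72, exact p = 3.65e-05). SHH is an epithelial product at this stage, and the part of the epithelial share in its ratio was not tested. CSF1R of macrophages had 0.09 and SOX10 of glia -0.06. TUBB3 of neurons had 0.02, the highest of 3 neuron genes within the limits in all libraries. The other 2 lay below 0, and the median was -0.16. The 4 neuron genes of the low-expression group had a median of -0.12.

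Of the lens and eye list only 2 genes are listed, both within the limits in 2 libraries. SIX6, an eye homeobox factor, had a log2 value of 0 in the talpid2 and in the control MXP library, a ratio of 0. Scaled values under 1 were raised to 1, and libraries at that floor have equal values. This ratio therefore does not show that SIX6 was detected and unchanged. ASL1, the main delta-crystallin of the chick lens, had log2 values of 4.15 in the talpid2 and -0.64 in the control MXP library, a ratio of 4.79 that was the highest of all listed genes. The ratio of ASL1 was 2.63 in the FNP and -0.15 in the MNP. The neighbour of ASL1, ASL, a near-identical copy that also makes argininosuccinate lyase, had 282.7 reads in the talpid2 and 118.4 in the control MXP library (1.26, interval 0.95 to 1.59, exact p = 7.16e-17). Reads of such copies could be shared between them by the counting, so the values of ASL are uncertain.

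Other genes with large ratios stood outside the lists. By rule the 15 highest and 15 lowest named genes were taken that passed the read test where they had reads. CA8, a carbonic anhydrase relative, had 288.4 reads in the talpid2 and 152.9 in the control MXP library (0.92, interval 0.63 to 1.21, exact p = 9.99e-11). HS3ST3A1, a sulfotransferase of heparan sulfate, is listed as 2 overlapping genes on opposite strands, with ratios of 0.83 and 0.78, and the first had 284.9 reads in talpid2 and 161.3 in control (exact p = 3.68e-09). A histone H4 copy listed as HIST1H46L6 had 630.5 and 362.2 reads in talpid2 and control (0.80, exact p = 9.15e-18), and a second copy of the low-expression group a ratio of 1.21, with the same reservation on shared reads. IQGAP2, a scaffold of the cytoskeleton, had 102.6 and 59.6 reads in talpid2 and control (0.79), ACBD7, an acyl-CoA binding protein, 117.9 and 66.9 (0.82), and TIGAR, a regulator of glycolysis, 74.9 and 40.0 (0.91). ADAMTS6, a matrix protease, SMYD3, a lysine methyltransferase, and IMMP2L, a mitochondrial peptidase, rested on fewer reads, with 61.7, 51.8 and 63.1 in talpid2 and 29.9, 25.2 and 35.4 in control. PKIG, an inhibitor of protein kinase A, had 24.6 and 9.5 reads in talpid2 and control, and RAB11FIP3, an effector of vesicle transport listed as 2 genes, had 38.7 and 22.1 for the entry with a ratio of 0.81 and a ratio of 0.00 for the other. MRPL36, a protein of the mitochondrial ribosome, had a ratio of 1.0, with -1.19 in the FNP and 1.84 in the MNP.

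Among the lowest by the same rule, besides SOCS2, the haemoglobins and TSPO2, reads were few for most. CDC42EP3, an effector of the CDC42 switch, had 34.7 reads in the talpid2 and 67.5 in the control MXP library (-0.95, exact p = 0.0012). PJA2, a ubiquitin ligase, had 22.1 and 43.4 reads in talpid2 and control (-0.97), SHB, an adaptor of receptor kinases, 18.4 and 34.7 (-0.91), and ZNF414, a zinc-finger protein, 18.2 and 33.5 (-0.87). RAB3C, a vesicle protein, had a ratio of -0.88, and 1 listed 5S ribosomal RNA, with near-identical copies elsewhere, had -1.05. Another listed 5S ribosomal RNA, ENSGALG00000021912, had -0.45. Genes outside the rule that had over 170 reads in both libraries, chosen after their values were seen, were CA13, a carbonic anhydrase, with 230.6 and 402.3 reads in talpid2 and control (-0.80, exact p = 1.13e-11), and TNFAIP6, which binds hyaluronan, with 174.4 and 299.9 (-0.78, exact p = 7.61e-09). APBB1IP, which activates integrins through RAP1, had 946.1 and 580.6 (0.71, exact p = 4.19e-21), and OGG1, a DNA repair glycosylase, had 466.3 and 289.7 (0.69, exact p = 1.19e-10). A pair of genes without a symbol also had large ratios. ENSGALG00000018479 on chromosome Z had 277.6 reads in talpid2 and 77.8 in control, a ratio of 1.84, the highest of the 9128 genes, with 1.98 in the FNP and 1.47 in the MNP. ENSGALG00000008227 on chromosome 1 had 356.7 and 816.9 reads in talpid2 and control (-1.19, exact p = 8.99e-42), with -1.30 in the FNP and 0.29 in the MNP.

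Short RNAs were over-spread. The SD was 0.63 for 61 small nucleolar RNAs and 0.54 for 27 miRNAs, against 0.20 for 8945 protein-coding genes. Of the small nucleolar RNAs 14 were past 0.5 and 11 past -0.5, where 1.64% and 1.63% of all genes were. Most extremes had few reads, such as SNORD35 with 3.50 reads in the talpid2 and 13.6 in the control MXP library, SNORD45 with 3.60 and 9.94, and gga-mir-1661 with 12.6 and 4.36. An exception was SNORD16, which guides modification of ribosomal RNA and lies in the ribosomal protein gene RPL4 on the same strand. It had 227.5 reads in talpid2 and 467.2 in control (-1.03, interval -1.27 to -0.80, exact p = 5.63e-20), against ratios of -0.09 in the FNP and -0.03 in the MNP, while RPL4 had a ratio of 0.07 in the MXP. Reads of the host gene could be counted for such RNAs.

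The low-expression group was more spread than the main set, with an SD of 0.69, and 436 of its 1209 genes (36.1%) were past 0.5, 210 higher (17.4%) and 226 lower (18.7%), and 149 (12.3%) past 1, 80 higher (6.62%) and 69 lower (5.71%). The highest and lowest ratios of this group rested on few reads for most genes, such as TUBA5, an alpha-tubulin, with 12.5 reads in the talpid2 and 1.68 in the control MXP library (2.90), and CACNG3, a channel subunit, with 1.84 and 13.8 (-2.90). Better covered were HSD17B2, which inactivates sex steroids, with 62.6 reads in talpid2 and 185.4 in control (-1.56, interval -1.99 to -1.13, exact p = 3.51e-15), and APOD, a lipid carrier, with 38.9 and 10.3 (1.92, interval 0.94 to 3.14, exact p = 3.65e-05), both picked after their values were seen.

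The ratios in the MXP were partly shared with the other prominences. Of the 150 genes at least 0.5 higher in the talpid2 MXP, 31 were also in the FNP, which is 20.7% of these and 17.5% of the 177 genes that were higher in the FNP, and 19 were in the MNP, 12.7% of these and 19.6% of the 97 in the MNP. Of the 149 lower genes, 29 were lower in the FNP, 19.5% of these and 15.7% of the 185 in the FNP, and 29 in the MNP, 19.5% of these and 22.8% of the 127 in the MNP. Over all 9128 genes, 1.94% were at least 0.5 higher and 2.03% lower in the FNP, and 1.06% and 1.39% in the MNP. Genes lower in all 3 were 10, namely the 5 haemoglobins, POSTN, PRSS35, USP49, CYB561 and LOC770996. Those higher in all 3 were 7, namely DKK4, the entry of HS3ST3A1 at 0.78 without recovered reads, RGCCL, SNORA5, SNORA33, a 5.8S ribosomal RNA and ENSGALG00000018479. Each prominence had its own control library, but the prominences of a genotype appear to come from the same set of embryos. The ratios of the prominences are therefore not independent checks of each other. Whether shared ratios follow differences between the sets of embryos other than the genotype was not tested.

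Differences between prominences were tested on the reads with the exact conditional test of equal ratios, adjusted over 5175 genes and both pairs. The MXP ratio differed from that of the FNP for 150 genes (2.9%), from that of the MNP for 91 (1.76%), and from both in 1 direction for 26 (0.502%). SOCS2, OSR1 and SNORD16 were lower, and TGFB2, OGG1 and APBB1IP higher, in the MXP than in both. RFLNB, a filamin-binding regulator of the skeleton, with 239.4 reads in talpid2 and 174.1 in control (0.46), and PTTG1IP, a binding protein of securin, with 781.8 and 590.1 (0.41), also differed from both. SHH and HHIP differed from the MNP, by 1.31 for SHH (adjusted p = 0.0019) and 1.39 for HHIP (adjusted p = 0.0023) in the exact conditional test. The differences of both genes from the FNP, 0.49 and 0.56, did not pass (exact conditional test, adjusted p = 0.54 and 0.56), which does not show that the ratios were alike. The Hedgehog carrier SCUBE1 differed from both prominences in opposite directions. In the exact conditional test its difference was -0.64 from the FNP (adjusted p = 0.00037) and 0.48 from the MNP (adjusted p = 0.0304). WIF1, FZD10, CYP26B1, HGF, HES5 and KRT15 differed from the FNP and not detectably from the MNP at this depth. The matrix genes and haemoglobins had no reads for this test, and their ratios in the FNP and MNP were -0.92 and -0.58 for POSTN, -0.58 and -0.50 for COL3A1 and -0.55 and 0.08 for OGN.

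**Figure D4:**
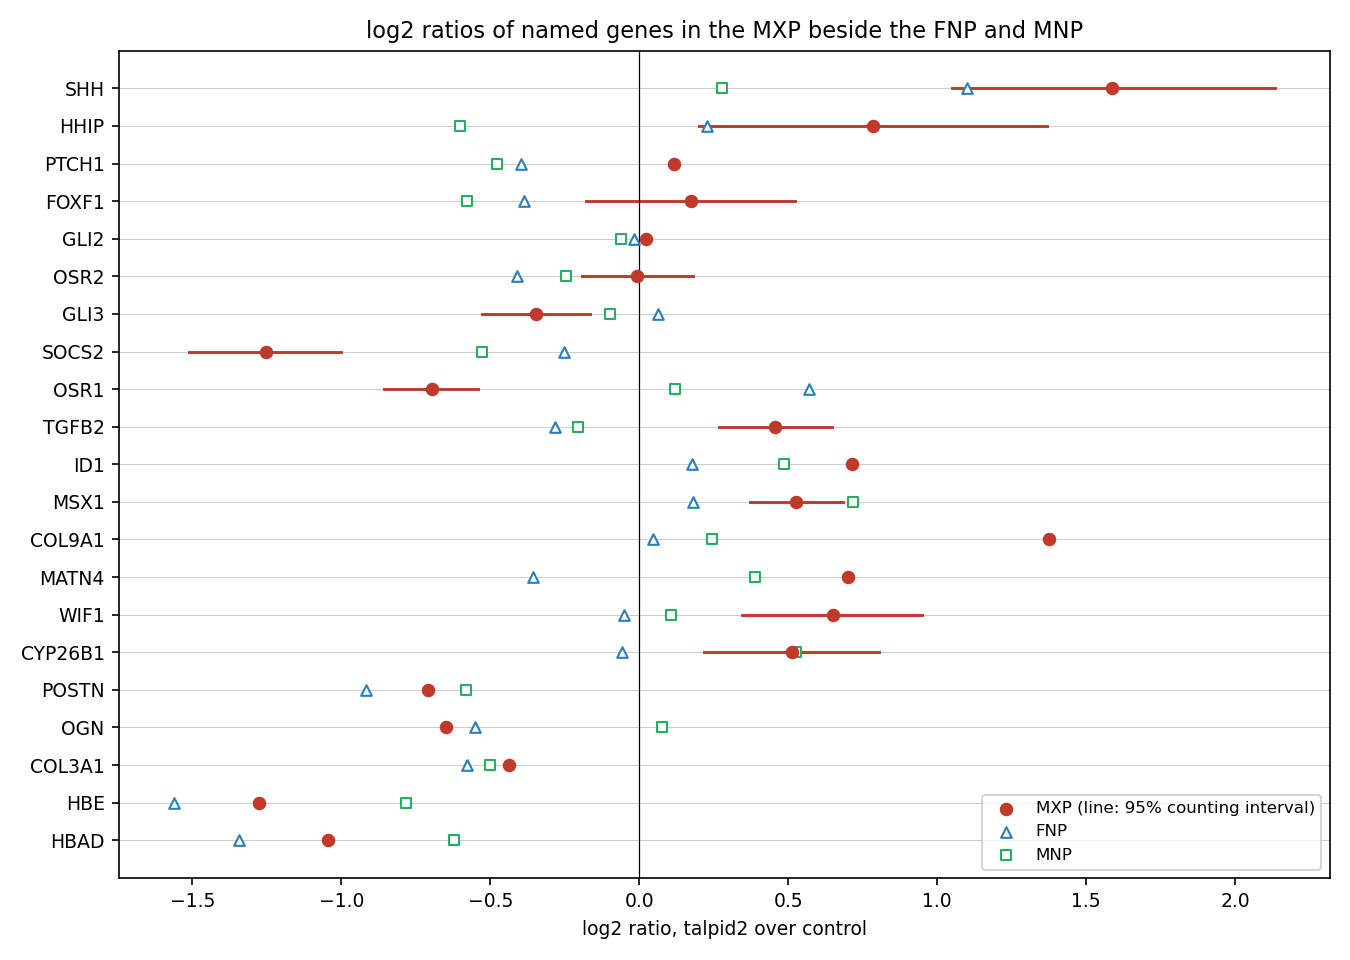
The log2 ratio of talpid2 over control is plotted for 21 named genes, with filled circles for the MXP and their 95% counting intervals as lines where reads were recovered, open triangles for the FNP and open squares for the MNP. The MXP values of SHH and HHIP are 1.59 and 0.78 and their MNP values 0.28 and -0.60, while SOCS2 and OSR1 at -1.25 and -0.70 lie below both of their other values and the haemoglobin HBE is below 0 in all 3.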

How the data were processed

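The authors made RNA libraries by the Illumina TruSeq and Nugen Ovation methods, sequenced them on a HiSeq instrument, aligned the reads to an Ensembl chick genome and processed them in GeneSpring. The aligner and the scaling are not given in the sources used here. The deposited values are log2 values, for which the authors scaled the libraries, raised anything under 1 to 1, and took off the median of the gene across its 6 libraries. A gene was retained if at least 1 library lay between 3.0 and 8607.81, on a measure that is not given in the sources used here and is not the scaled value, and the number of such libraries was deposited. Counts, lengths and comparisons between genotypes are not among the deposited values.

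The log2 ratio is the talpid2 minus the control value, with no pseudocount. Reads were recovered by estimating the worth of 1 read in each library (0.866 to 1.098 scaled units, 1.0567 in the talpid2 and 1.053 in the control MXP) and seeking the smallest whole numbers of bases, up to 1000 reads, that gave a gene's 6 values. With wrong steps, 0.575% of 2000 genes had a solution. Tested on simulated data, 96.1% of 5071 recoverable genes came out exactly, 6.75% of 5226 recovered genes were wrong, of which 99.7% had the true ratio with too few reads, and for 95.6% the true ratio lay inside the 95% interval. The read test passed 4.8% of 5126 unchanged genes in the simulation, 84.8% of 46 genes changed by 0.5 and 92.6% of 54 changed by 1 on the log2 scale. The exact conditional test of equal ratios passed 4.95% of 2000 equal ratios. Simulated reads varied by counting error alone, with no amplification and no variation between pools. They were given the same length of 50 bases, so the simulation does not test the inferred read length. The real ratios were more spread, with an SD of 0.16 at 300 to 1000 reads where counting error gives 0.09. These shares therefore do not show how often the tests pass unchanged genes in the real libraries. Computations used Python 3.11.15, numpy 2.4.6, pandas 2.3.3 and scipy 1.17.1, with figures by matplotlib 3.10.9.

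The members, the 35 gene lists and the tests were chosen with earlier results of these data known, and 1 of these lists, of genes induced by BMP signals, was added after the values were seen. Lists are described by counts and medians beside all genes, with no test. Genes were named by rule as the 15 highest and 15 lowest with a symbol that passed the read test where they had reads, 6 fixed genes, up to 6 members of each list, and the 5 highest and 5 lowest of the low-expression group. Many of the other genes named were chosen after their values were seen. Of the 220 genes considered for the text, 31 overlap another listed gene, 17 of them on the same strand. Symbols came from the file or from RefSeq (GRCg7b), which was used for names alone. By Entrez or Ensembl identifier, 7479 of the 10337 listed genes matched RefSeq, and 8274 listed genes had an Entrez identifier. By hand, 14 genes were named from the file's descriptions. Where a symbol had several entries, as 79 did, values are of the entry named. GLI1 was not analysed here, and a few genes are not reported here. Alternatives were GAPDH as the reference gene, subtraction of the median ratio, all listed genes, protein-coding genes only, a pseudocount of 10 reads, another depth ratio and Benjamini-Hochberg adjustment. Leaving out genes under 100 reads was added after the data were seen.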

Additional observations from a re-analysis of the deposited data

Results flagged for a closer look

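The ratio of talpid2 to control in the MXP differed from that in another prominence, by the exact conditional test on recovered reads with Benjamini-Hochberg adjustment over all genes and both pairs, for the following named genes, and 1 library per side stands behind each value. Differences are the MXP log2 ratio minus the other log2 ratio. For Hedgehog genes the difference from the MNP was 1.31 for SHH and 1.39 for HHIP. SCUBE1, a secreted Hedgehog carrier, differed from the FNP by -0.64 and from the MNP by 0.48, since its ratio was 0.57 in the FNP and -0.55 in the MNP. The centriole protein ODF2 differed from the FNP by -0.42.

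Among signalling genes, SOCS2 differed by -1.0 from the FNP and by -0.73 from the MNP. TGFB2 differed by 0.74 from the FNP and by 0.66 from the MNP. The differences from the FNP were 0.80 for FZD10, 0.70 for WIF1, -1.32 for HGF, 0.57 for CYP26B1, 1.59 for HES5 and 0.92 for KRT15. OSR1 differed from the FNP by -1.27 and from the MNP by -0.82. HGF, HES5, KRT15 and OSR1 are of the low-expression group.

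Other genes with differences from both prominences were the histone copy HIST1H46L6 (1.4 from the FNP and 1.19 from the MNP), OGG1 (0.67 and 0.72), APBB1IP (1.12 and 0.62), RFLNB (1.12 and 0.63), PTTG1IP (0.50 and 0.58), SNORD16 (-0.94 and -1.0), and in the low-expression group gga-mir-1562 (-0.76 and -1.88) and C5orf35 (-1.76 and -0.84). CA8 differed from the FNP by 0.71. From the MNP the differences were 1.15 for ASL, 1.29 for IMMP2L, -1.48 for ENSGALG00000008227 and -0.90 for HSD17B2. Counting error is covered by this test and the variation between pools of embryos is not.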

How the results depend on the processing

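With 1 library per genotype and prominence, no replicate could be left out. For the same reason no paired test of the genotypes within a prominence was possible. A log2 ratio of 1 was passed by 29 genes (13 higher and 16 lower in talpid2), against 178 (93 and 85) when all listed genes were counted, 19 (8 higher) among protein-coding genes, and 12 (4 and 8) when genes under 100 reads were left out. For the limit of 0.5 (150 higher and 149 lower), all listed genes gave 735 (360 and 375), leaving out genes under 100 reads gave 142 (65 and 77), and GAPDH as the reference gene gave 77 higher and 259 lower. The read test was passed by 897 of 5218 genes without correction and by 291 after Benjamini-Hochberg adjustment. The median of the Hedgehog ligands and release list moved to -0.072, against -0.24, when all listed members were used. With all listed members, the medians of the Hedgehog targets (0.02, against -0.04) and homeobox lists (-0.01, against 0.01) changed sign. Of 33 list medians, 11 changed sign with GAPDH as the reference gene, all of them under 0.11 in size. Of 220 genes considered for the text, 12 changed sign with GAPDH, 1 with the median subtracted and none of 116 with a pseudocount of 10 reads, while 9 with GAPDH and 12 with the pseudocount came to lie under 0.5. The other counts and medians stayed within 1.5 times or within the spread used for them. Depth limits the low end, since among 44 genes under 10 reads the SD of the ratios was 0.77, where counting error alone gives 0.87.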

Other observations

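Genes of chromosome Z had a median log2 ratio of -0.06 over 318 genes, with 6 past 0.5 and 15 past -0.5, and the sex of the pooled embryos is not given. On chromosome 18, 12 of 221 genes were past 0.5 and 1 past -0.5, with a median of 0.04. Both overlapping entries of HS3ST3A1 are among the 12. Over all 9128 genes, 1.64% were past 0.5 and 1.63% past -0.5. Other chromosomes are not described here, and no chromosome was tested.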
